A study of Mus musculus with 4 samples.

Results

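The 10 immediate early genes Fos, Fosb, Jun, Junb, Egr1, Nr4a1, Dusp1, Zfp36, Btg2 and Ier2, out of 33696 genes in the files, were followed across 4 classes of mouse peritoneal leukocytes. The members are a list of gene symbols, and the rule itself uses no measured value, but the list was drawn up with earlier results of these data known. Wild-type (WT) mice received chow (CD) or a high-fat diet (HFD) for 3 months from 4 weeks of age. Cells were washed from the peritoneal cavity with culture medium and sorted by flow cytometry for CD45, the surface protein of all leukocytes. They were then profiled by droplet RNA sequencing, and B-cell receptor transcripts were sequenced from the same cells. Each diet was 1 expression library, and how many mice went into it is not stated in the sources used here. The labels' treatment note gives high-fat food to both groups, while the titles and the design text give chow to CD, and the latter was followed. With 1 library per diet there was no replicate check, so no test was made between diets.

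Immediate early genes are transcribed within minutes of a stimulus, from factors that are already in the cell, and their mRNAs are short-lived. Growth factors, antigen, microbial products and also the handling of tissue switch them on through MAP kinases, serum response factor (SRF) and the cAMP-responsive factor CREB. Fos, Fosb, Jun and Junb encode subunits of the dimeric transcription factor AP-1. Egr1 encodes a zinc-finger transcription factor and Nr4a1 the orphan nuclear receptor Nur77, which is induced by antigen receptor signals in lymphocytes and is also present in some macrophages and monocytes. Dusp1 encodes a phosphatase that switches off MAP kinases, Zfp36 the protein tristetraprolin, which directs decay of AU-rich mRNAs, Btg2 an antiproliferative adaptor of mRNA deadenylation, and Ier2 a nuclear protein of the same rapid response.

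The sequences before the transcription starts of these genes carry short elements read by such factors. RefSeq (GRCm38.p6) windows were found for 8 of the 10 members, all but Egr1 and Ier2. Within the 250 bases before the start, on both strands, 2 of 8 windows held the full CREB element TGACGTCA, against 1.55% of 32851 windows of all genes. Its shorter form TGACG, which lies within the full element too, was in 6 of 8 windows, against 17.8% of all. The CArG box, the element of SRF, was in the window of Zfp36 only, against 1.47% of all. The EGR element, searched as GCGGGGGCG or GCGTGGGCG, was in 3 of 8, those of Fosb, Nr4a1 and Zfp36, against 3.06%, and the AP-1 element TGACTCA or TGAGTCA in 0 of 8, against 4.46%. Such a match is a description of the letters and does not show binding. Bases further upstream were not searched, so the lack of a match here does not show that a gene lacks the element. Windows are shown for Fos and Nr4a1, whose levels differed most between the libraries, and for the 3 members with a full CREB element or a CArG box. The windows lie at chr12:85473640-85473889 (plus strand) for Fos, chr15:101266596-101266845 (plus) for Nr4a1, chr17:26508473-26508722 (minus) for Dusp1, chr1:134079156-134079405 (minus) for Btg2 and chr7:28379229-28379478 (minus) for Zfp36. Each is written 5′ to 3′ on the strand of its gene, ends at the base before the start, and has the CREB elements, short or full, and the CArG box in capitals.
Fos: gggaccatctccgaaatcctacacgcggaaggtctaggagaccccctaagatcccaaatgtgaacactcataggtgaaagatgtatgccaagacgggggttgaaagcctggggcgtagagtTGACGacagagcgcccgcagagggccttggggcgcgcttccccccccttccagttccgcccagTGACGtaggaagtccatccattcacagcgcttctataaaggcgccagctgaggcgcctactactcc
Nr4a1: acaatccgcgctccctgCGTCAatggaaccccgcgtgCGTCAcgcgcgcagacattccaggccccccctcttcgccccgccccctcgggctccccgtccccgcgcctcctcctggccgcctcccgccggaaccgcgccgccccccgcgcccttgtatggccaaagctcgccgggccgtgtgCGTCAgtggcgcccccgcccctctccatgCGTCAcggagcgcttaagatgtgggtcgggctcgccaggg
Dusp1: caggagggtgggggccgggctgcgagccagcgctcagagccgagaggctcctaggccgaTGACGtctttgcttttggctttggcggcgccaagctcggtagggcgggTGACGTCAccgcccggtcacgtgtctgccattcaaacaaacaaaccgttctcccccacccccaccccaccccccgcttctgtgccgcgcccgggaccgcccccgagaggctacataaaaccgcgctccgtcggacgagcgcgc
Btg2: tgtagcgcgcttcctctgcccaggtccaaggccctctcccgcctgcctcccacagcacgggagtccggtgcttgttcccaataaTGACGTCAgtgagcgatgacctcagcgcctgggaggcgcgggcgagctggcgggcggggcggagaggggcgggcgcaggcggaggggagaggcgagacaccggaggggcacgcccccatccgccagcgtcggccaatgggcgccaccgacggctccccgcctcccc
Zfp36: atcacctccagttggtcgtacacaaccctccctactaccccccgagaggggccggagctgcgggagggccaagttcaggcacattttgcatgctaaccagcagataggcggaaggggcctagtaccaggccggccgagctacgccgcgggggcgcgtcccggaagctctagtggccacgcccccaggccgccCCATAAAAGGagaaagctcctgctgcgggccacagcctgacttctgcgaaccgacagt
Fos held the short CREB form at 2 places, the nearer 66 to 62 bases before the start, with TATAAA 33 to 28 bases before it. Nr4a1 held the short form at 4 places, all on the opposite strand, so that it reads CGTCA here. The full element stood 143 to 136 bases before the start of Dusp1 and 166 to 159 bases before that of Btg2, and the CArG box 58 to 49 bases before that of Zfp36.

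The CD matrix held 13227 barcodes with 73549582 unique molecular identifiers (UMIs), and the HFD matrix 6897 barcodes with 57630074. A floor of 300 genes and a ceiling of 10% mitochondrial UMIs left 13069 CD and 6684 HFD barcodes, and 30 barcode sequences occurred in both matrices. Macrophage barcodes had at least 5 UMIs over Adgre1, Prg4, Alox15 and Garnl3, and T barcodes at least 2 UMIs over Cd3e, Cd3d and Cd3g, and neither had a receptor contig. B barcodes had a receptor contig and either 0 or at least 2 UMIs over Fcer2a and Cr2, genes of conventional B cells. The numbers for CD and HFD were 2243 and 1526 macrophage barcodes, 1117 and 820 T barcodes, 4884 and 2409 Fcer2a/Cr2-negative B barcodes, and 1143 and 768 Fcer2a/Cr2-positive B barcodes. The T markers summed to 2172 and 2894 UMIs per 1000000 (CPM) in the T class and to 102 and 49.0 CPM in macrophages. The B markers summed to 8361 and 8580 CPM in the negative and 9561 and 9867 CPM in the positive B class. Summed B1 markers were 4281 CPM in CD and 6827 in HFD in the negative B class, against 1534 and 2307 in the positive one, although a 0 for Fcer2a and Cr2 also depends on depth. Most of this sum was S100a6, at 3710 and 5838 CPM in the negative and 1324 and 2007 CPM in the positive class. The same markers summed to 2727 and 2090 CPM in T and to 2581 and 3286 CPM in macrophages, so they mark B1 cells weakly.

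Both depth and purity of the classes differed between the libraries, and both bear on every value below. The median macrophage barcode had 4966 UMIs in CD and 12275 in HFD, and in the other classes the medians were 4033 to 4819 in CD and 5182 to 6576 in HFD. Barcodes that also carried markers of another lineage, called 2-lineage barcodes here, made up 29.6% of the CD and 16.0% of the HFD macrophage class. Of the T class they made up 35.4% and 13.4%. In the negative B class their share was 12.3% and 8.43%, and in the positive B class 4.90% and 2.86%. The 10 macrophage markers, all above 0 in each class and mostly Lyz2 by amount, summed to 4231 CPM in CD and 2347 CPM in HFD in the negative B class, 2361 and 2432 CPM in the positive B class, and 6409 and 4733 CPM in T. In the macrophage class itself they summed to 49772 and 45040 CPM. The 10 B markers summed to 1269 and 326 CPM in macrophages and to 2582 and 754 CPM in T. In the negative B class 5 neutrophil markers summed to 8.10 CPM in CD and 168 CPM in HFD, where S100a9 was highest at 73.2 CPM. In the positive B class they summed to 5.96 and 8.44 CPM. Neutrophil markers were not used to call 2-lineage barcodes, and a part of such RNA in the member values was not tested. Without the 2-lineage barcodes, levels and ratios of many members were different, and values of both kinds are given below.

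In both libraries the macrophage class had the highest level of 9 of the 10 genes, the exception being Fosb. Summed over the 10 genes, macrophages had 3681 CPM in CD and 3368 CPM in HFD. The T class had 1951 and 1824 CPM, the negative B class 1714 and 1561 CPM, and the positive B class 1643 and 1378 CPM. Without 2-lineage barcodes these sums were 3948 and 3430 CPM in macrophages, 1785 and 1679 in T, 1556 and 1498 in negative B and 1587 and 1308 in positive B barcodes, so that the order of the B classes in CD depended on these barcodes. The member furthest apart between classes was Dusp1, at 672 and 518 CPM in macrophages, 138 and 109 CPM in T, 83.5 and 51.9 CPM in negative B and 65.8 and 52.5 CPM in positive B barcodes. Macrophages thus had 4.87 times the Dusp1 level of T barcodes in CD and 4.77 times in HFD. Without 2-lineage barcodes the Dusp1 levels were 753 and 532 CPM in macrophages, 85.7 and 75.9 CPM in T, 48.3 and 41.9 CPM in positive B and 37.3 and 32.0 CPM in negative B barcodes. Macrophages then had 8.79 times the T level in CD and 7.01 times in HFD, and the positive B level lay above the negative B one beyond the intervals in both libraries. The counts are molecules, not reads per length, and levels are compared within a gene only.

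**Figure D1:**
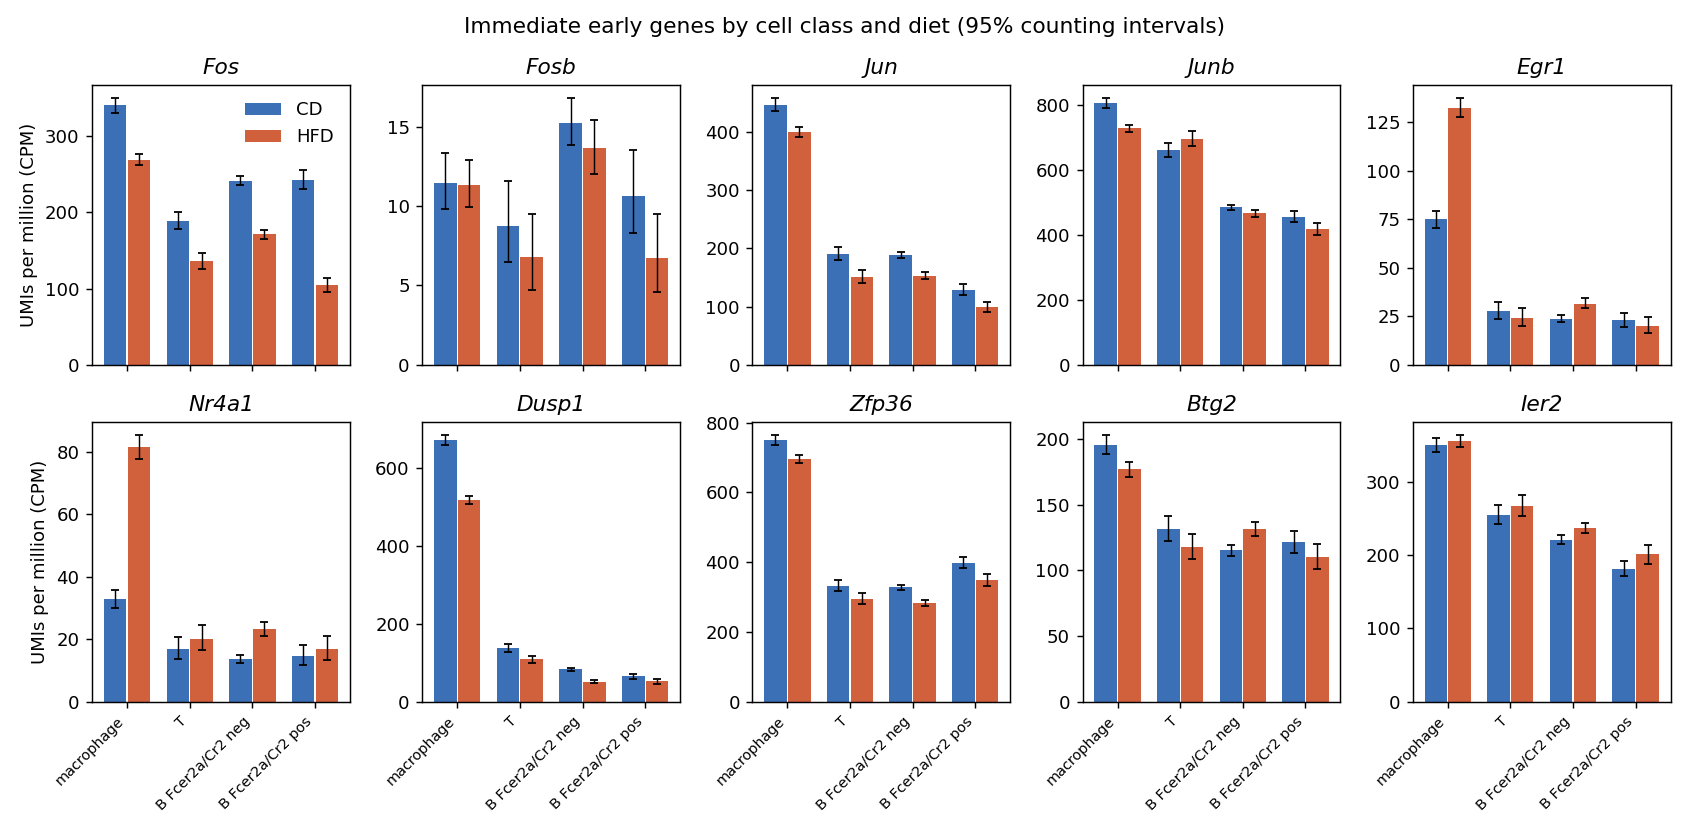
Levels of the 10 genes in CPM (linear axes from 0), 1 panel per gene, for 4 cell classes in the CD library (blue) and the HFD library (orange), with exact Poisson 95% intervals. Macrophages stand highest in each panel except that of Fosb, and in the Nr4a1 and Egr1 panels the HFD macrophage bar is well above the CD one.

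Among the AP-1 genes, Jun stood 2.34 times higher in macrophages than in T in CD, and 2.61 times higher than in negative B barcodes in HFD. Its T and negative B levels did not differ beyond their intervals in either library, and the positive B class was lowest, at 129 and 99.1 CPM. Leaving out 2-lineage barcodes, the Jun levels in HFD were 145 CPM in negative B and 119 CPM in T barcodes, with intervals apart, and in CD they still overlapped (165 and 165 CPM). Junb spanned 1.77-fold over the classes in CD, with 806 CPM in macrophages, 661 in T, 484 in negative B and 456 in positive B barcodes. In HFD its macrophage level of 728 CPM and its T level of 696 CPM had overlapping intervals. The Junb levels of the B classes in CD were 451 and 447 CPM without 2-lineage barcodes, and overlapped. The order of Fos differed between the libraries, from positive B (243 CPM), negative B (241 CPM) and T (189 CPM) below macrophages (340 CPM) in CD to negative B (171 CPM), T (136 CPM) and positive B (105 CPM) below macrophages (269 CPM) in HFD. Fosb was low everywhere, 6.75 to 15.3 CPM, and highest in negative B barcodes, where it had 15.3 CPM in CD and 13.7 CPM in HFD. Against macrophages the intervals were apart in CD and overlapped in HFD. Next to negative B in CD came positive B, at 11.2 CPM, once 2-lineage barcodes were left out, and those intervals overlapped.

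Of the other regulators, Egr1 had 74.9 CPM in CD macrophages and 132 CPM in HFD macrophages, and between 20.2 and 31.6 CPM in the lymphocyte classes of both libraries. Neighbouring lymphocyte classes had overlapping intervals, but in HFD negative B (29.1 to 34.2 CPM) lay above positive B (16.4 to 24.7 CPM). Without 2-lineage barcodes Egr1 in HFD was 26.3 CPM in negative B, 17.5 CPM in positive B and 14.2 CPM in T barcodes, and the first of these lay above the others beyond the intervals. Nr4a1 had 32.9 and 81.5 CPM in macrophages and 13.6 to 23.3 CPM in lymphocytes, again with overlapping neighbours. In HFD its negative B interval (21.2 to 25.6 CPM) lay above its positive B one (13.4 to 21.0 CPM). Its HFD levels without 2-lineage barcodes were 22.1 CPM in negative B and 14.4 CPM in positive B, with intervals apart, and 15.9 CPM in T barcodes. Zfp36 ranked macrophages (750 and 696 CPM), positive B (399 and 348 CPM), and then T and negative B barcodes, whose intervals overlapped. Without 2-lineage barcodes Zfp36 in negative B barcodes (301 and 272 CPM) lay above T (251 and 242 CPM) beyond the intervals in both libraries. Btg2 had 196 and 177 CPM in macrophages and 110 to 132 CPM in the lymphocyte classes. Ier2 kept 1 order in both libraries, with 351 and 356 CPM in macrophages, 255 and 268 in T, 221 and 237 in negative B and 182 and 201 in positive B barcodes, each step beyond the intervals. In HFD the T and negative B levels of Ier2, 247 and 233 CPM without 2-lineage barcodes, had overlapping intervals.

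Between the diet libraries, the summed level was slightly lower in HFD in all 4 classes. The log2 ratio of HFD over CD was -0.13 in macrophages (95% interval -0.14 to -0.11), -0.10 in T (-0.14 to -0.06), -0.13 in negative B (-0.16 to -0.11) and -0.25 in positive B barcodes (-0.30 to -0.21). The intervals here and below hold counting error alone, with nothing of the spread between mice or between preparations. The median ratio of all tested genes, those with at least 20 UMIs over both libraries and 10 CPM in the higher one, was -0.03, -0.03, -0.01 and 0.05 in the same order. The negative B value was -0.05 without 2-lineage barcodes, and 0.00 when barcodes were also held to 3000 to 10000 UMIs. The median log2 ratio of the 10 genes was -0.13, -0.18, -0.11 and -0.19.

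Single members differed in opposite directions. Past 1.5-fold, 2 of 10 members were higher in HFD macrophages (Nr4a1 and Egr1), where 3.7% of 7884 tested genes were, and 0 were lower, where 6.56% were. In T barcodes 0 of the 9 members tested passed 1.5-fold, where 7.55% of 8409 genes were lower and 3.79% higher. Fosb did not reach the minimum there. In negative B barcodes 1 member was lower (Dusp1) and 1 higher (Nr4a1), where 2.98% and 2.16% of 7788 genes were. In positive B barcodes 2 members were lower (Fos and Fosb), where 2.14% of 7959 genes were, and 0 higher, where 3.44% were. By interval, 6 members lay below 0 in macrophages (all genes 30.6%) and 2 above (24.4%). Without 2-lineage barcodes both counts were the same (22.4% and 23.8%). In T it was 5 below (17.8%) and 1 above (12.8%), which became 1 and 1 (13.7% and 8.09%) without 2-lineage barcodes. In negative B it was 5 below (25.5%) and 4 above (21.2%), which became 4 and 4 (21.2% and 22.8%). In positive B it was 6 below (8.71%) and 1 above (15.7%), which became 5 and 1 (8.02% and 15%). Past 1.5-fold and without those barcodes, macrophages had 0 members lower (4.26%) and the same 2 higher (3.77%). T had 0 lower (6.71%) and 1 higher (4.15%), Nr4a1. Negative B had 0 lower (1.94%), with Dusp1 no longer past the limit, and Nr4a1 higher (2.68%). Positive B had Fos and Fosb lower (1.8%) and 0 higher (3.69%).

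**Figure D2:**
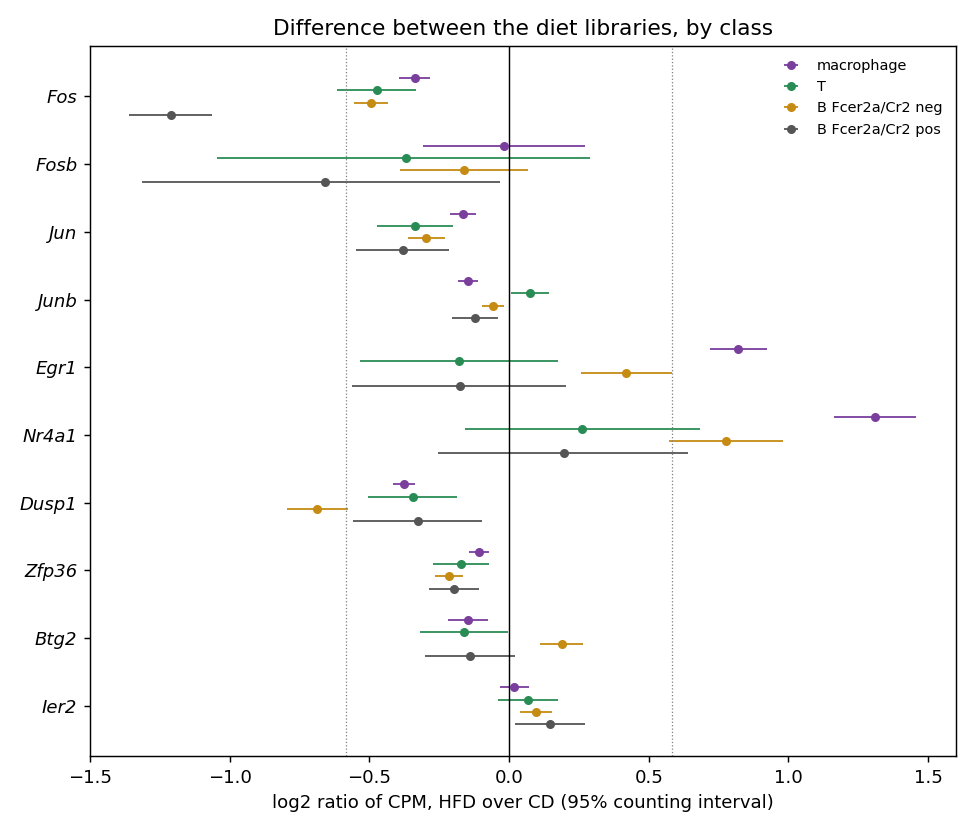
Log2 ratio of CPM, HFD over CD, for each gene and class, with 95% counting intervals. The dotted lines mark 1.5-fold, and macrophage Nr4a1 and Egr1 lie to the right of the upper line while positive-B Fos lies at -1.21.

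Nr4a1 in macrophages was the largest difference toward HFD among the 40 gene-by-class ratios. It had 492 UMIs, or 32.9 CPM, in CD and 1716 UMIs, or 81.5 CPM, in HFD, a log2 ratio of 1.31 (1.16 to 1.46). A UMI of Nr4a1 was found in 14.8% of CD macrophage barcodes (Clopper-Pearson 13.3 to 16.3) and 47.1% of HFD ones (44.5 to 49.6). With each barcode thinned to 2000 UMIs, which leaves out 250 CD and 64 HFD barcodes, the shares were 5.75% and 14.3%. Within bands of depth the ratio was 1.64 below 5000 UMIs, 1.41 from 5000 to 10000, 1.43 from 10000 to 20000, and 1.12 at 20000 or more. The higher level in HFD was thus present in barcodes of like depth. The 10% of macrophage barcodes with the most Nr4a1 held 76.4% of its UMIs in CD and 39.3% in HFD, a share that also depends on depth. Without 2-lineage barcodes the ratio was 1.28, and over all alternatives it ranged from 1.28 to 1.59.

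Egr1 followed the same direction in macrophages, with 1122 UMIs (74.9 CPM) in CD and 2789 UMIs (132 CPM) in HFD, a log2 ratio of 0.82 (0.72 to 0.92). The share with a UMI was 25.9% in CD and 51.6% in HFD, and 12.8% and 20.1% after thinning. In CD its level was lower in deeper barcodes, 100.2, 74.1, 68.4 and 44.8 CPM over the 4 bands, whereas HFD had 146, 136, 148 and 119 CPM. The ratio accordingly went from 0.54 in the shallowest band to 1.41 in the deepest, where CD had 68 barcodes and 71 UMIs. The ratio ranged from 0.66 to 0.86 over the alternatives.

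**Figure D3:**
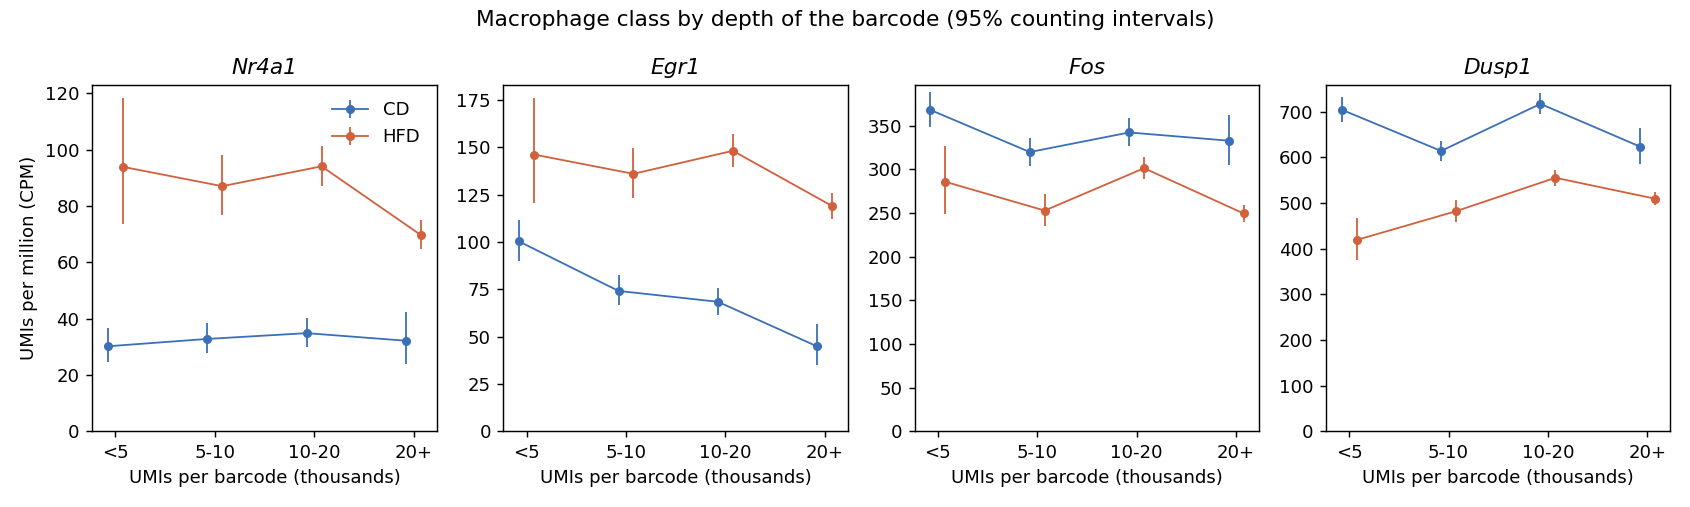
Levels in macrophage barcodes grouped by their UMIs (limits at 5000, 10000 and 20000 UMIs), in CPM on linear axes from 0, for CD (blue) and HFD (orange), with exact Poisson 95% intervals. Nr4a1 and Egr1 are higher in HFD in all 4 bands, and Fos and Dusp1 are lower.

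These ratios were set against those of the other classes by their difference and its counting interval. For Nr4a1, macrophages exceeded T by 1.05 (0.62 to 1.48), negative B by 0.53 (0.29 to 0.78) and positive B by 1.11 (0.66 to 1.57). For Egr1 the differences were 0.9995 (0.64 to 1.36), 0.40 (0.21 to 0.59) and 0.998 (0.61 to 1.38). All 6 intervals lay above 0. Without 2-lineage barcodes the difference from T was 0.57 (-0.10 to 1.23) for Nr4a1, with an interval that reached below 0, and 1.02 (0.46 to 1.58) for Egr1. The differences from negative B were then 0.53 (0.25 to 0.80) and 0.26 (0.04 to 0.48), and those from positive B 1.27 (0.77 to 1.77) and 1.05 (0.62 to 1.47). In negative B barcodes Nr4a1 had 13.6 and 23.3 CPM, a log2 ratio of 0.78 (0.57 to 0.98), and Egr1 had 23.6 and 31.6 CPM, 0.42 (0.26 to 0.58). Without 2-lineage barcodes these were 0.75 and 0.50. Nr4a1 there was 0.32 (-0.20 to 0.82) below 5000 UMIs, 0.47 from 5000 to 10000 and 1.04 from 10000 to 20000. In T and positive B barcodes the intervals of both genes spanned 0. Without 2-lineage barcodes Nr4a1 in T was 0.71 (0.05 to 1.41), from 28 and 63 UMIs. With all T barcodes it was 0.93 (-0.08 to 1.95) below 5000 UMIs and -0.83 (-1.76 to 0.06) from 5000 to 10000. From 10000 to 20000 UMIs it was -0.07 (-0.73 to 0.59), so the sign of Nr4a1 in T varied with depth.

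Few lymphocytes showed a molecule of these low genes. After thinning, shares with a UMI of Fosb, Egr1 or Nr4a1 were 1.12% to 4.07% in the lymphocyte classes. Csf1r, the macrophage growth factor receptor, which lymphocytes should lack, gave 6.95% and 5.14% in T, 4.73% and 2.67% in negative B and 2.30% and 1.75% in positive B barcodes, against 54.1% and 49.8% in macrophages. The shares of the low genes are therefore not read as shares of expressing lymphocytes. The macrophage profile scaled to the macrophage marker sum of each class gives another yardstick. For Nr4a1 in negative B barcodes it came to 2.79 of 13.6 CPM in CD and 4.25 of 23.3 CPM in HFD. The share was larger in HFD T barcodes, at 57.1% of the Egr1 and 42.4% of the Nr4a1 level, and in HFD positive B barcodes, at 35.3% and 26.1%. Without 2-lineage barcodes these shares were 32.9% and 18.3% in T and 16.9% and 12.9% in positive B barcodes.

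Fos in positive B barcodes was the largest of the 40 differences toward CD. It had 1548 UMIs, 243 CPM, in CD and 497 UMIs, 105 CPM, in HFD, a log2 ratio of -1.21 (-1.36 to -1.06). A Fos UMI was found in 51.2% of CD and 31.5% of HFD barcodes, and in 31.1% and 15.3% after thinning. The ratio was -1.42 below 5000 UMIs, -1.31 from 5000 to 10000 and -1.05 from 10000 to 20000. Without 2-lineage barcodes it was -1.26, and the alternatives ranged from -1.37 to -1.14. The macrophage marker sum in this class was 2361 CPM in CD and 2432 CPM in HFD, and 661 and 1017 CPM without 2-lineage barcodes. A part of macrophage RNA in the Fos ratio was not tested.

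Fos was lower in HFD in the other classes too, by smaller amounts. It had 340 and 269 CPM in macrophages, a log2 ratio of -0.34 (-0.39 to -0.28). In T it had 189 and 136 CPM, -0.47 (-0.62 to -0.33), and in negative B barcodes 241 and 171 CPM, -0.49 (-0.56 to -0.43). The positive B ratio lay below that of negative B by 0.72 (0.56 to 0.87), below T by 0.74 (0.54 to 0.94) and below macrophages by 0.87 (0.72 to 1.03). In T the value depended on mixed barcodes. Without them Fos had 148 and 131 CPM, -0.18 (-0.37 to 0.01), and the positive B ratio lay below that of T by 1.08 (0.84 to 1.32).

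The other AP-1 genes differed less. Jun was lower in HFD in all 4 classes, with log2 ratios of -0.16 in macrophages, -0.34 in T, -0.30 in negative B and -0.38 in positive B barcodes, each interval below 0 and each direction kept over the alternatives. Junb was -0.15 in macrophages (-0.18 to -0.11), -0.06 in negative B (-0.10 to -0.02) and -0.12 in positive B barcodes (-0.21 to -0.04), and 0.07 in T (0.01 to 0.14). Without 2-lineage barcodes the sign turned in T, to -0.04, and in negative B, to 0.01, so only the macrophage and positive B directions of Junb held. Fosb had 68 and 32 UMIs in positive B barcodes, 10.7 and 6.75 CPM, a log2 ratio of -0.66 (-1.31 to -0.03), which was 0.04 under stricter class limits. Its intervals spanned 0 in the other 3 classes.

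Dusp1 was lower in HFD in every class. Macrophages had 672 and 518 CPM, a log2 ratio of -0.38, which was -0.50 (-0.54 to -0.46) without 2-lineage barcodes. The bands of depth gave -0.75, -0.35, -0.37 and -0.29 from shallow to deep. Negative B barcodes had 2276 UMIs (83.5 CPM) in CD and 969 (51.9 CPM) in HFD, -0.69 (-0.80 to -0.58). Without 2-lineage barcodes the levels were 37.3 and 32.0 CPM and the ratio was -0.22 (-0.38 to -0.06), and with depth also held to 3000 to 10000 UMIs it was -0.04. In the same class the macrophage markers went from 4231 and 2347 CPM to 858 and 894 CPM when those barcodes were left out. The macrophage profile scaled to the marker sum came to 57.1 of the 83.5 CPM in CD and 27.0 of the 51.9 CPM in HFD. T barcodes had 138 and 109 CPM, -0.35 (-0.51 to -0.19), which was -0.18 (-0.42 to 0.07) without 2-lineage barcodes. Positive B barcodes had 65.8 and 52.5 CPM, -0.33 (-0.56 to -0.10), which was -0.20 (-0.48 to 0.07).

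**Figure D4:**
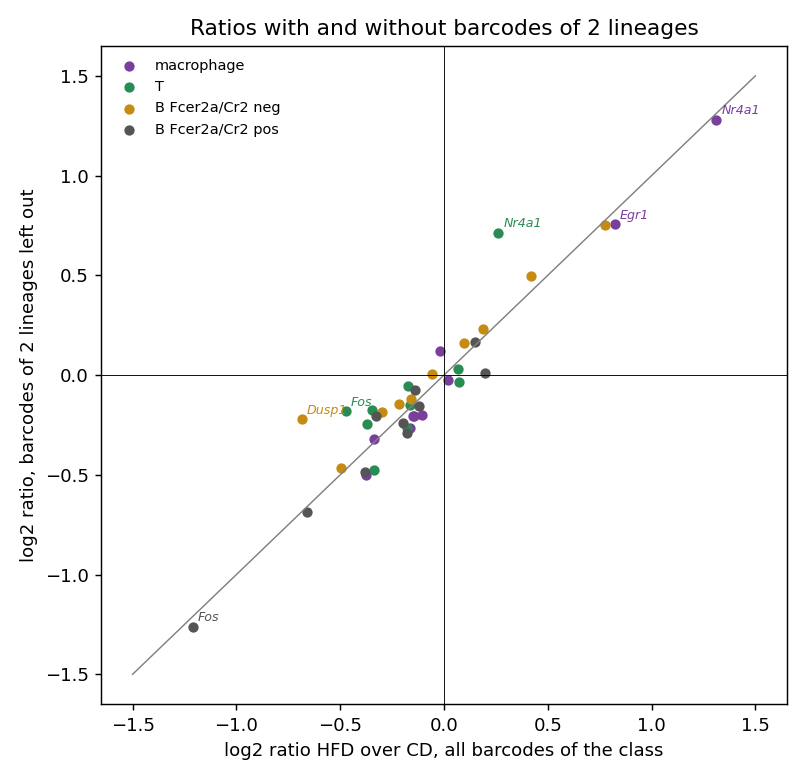
Log2 ratios of HFD over CD with all barcodes of a class (x axis) and with 2-lineage barcodes left out (y axis), 1 point per gene and class, with the line of equality. Points furthest off the line are Dusp1 in negative B barcodes (-0.69 against -0.22), Nr4a1 in T (0.26 against 0.71) and Fos in T (-0.47 against -0.18).

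The other feedback genes and Ier2 differed less. Zfp36 was lower in HFD in all classes, with 750 and 696 CPM in macrophages (-0.11), 333 and 295 CPM in T (-0.17), 328 and 283 CPM in negative B (-0.22) and 399 and 348 CPM in positive B barcodes (-0.20), each interval below 0. In T the interval spanned 0 without 2-lineage barcodes (-0.06, -0.20 to 0.09). Btg2 was higher in HFD in negative B barcodes, 115 and 131 CPM (0.19, 0.11 to 0.27), and 0.23 without 2-lineage barcodes. In macrophages it had 196 and 177 CPM (-0.15), in T 132 and 118 CPM (-0.16) and in positive B barcodes 121 and 110 CPM (-0.14, -0.30 to 0.02). The Btg2 interval in T spanned 0 without 2-lineage barcodes (-0.15, -0.35 to 0.05). Ier2 did not follow Fos and Dusp1. It had 351 and 356 CPM in macrophages (0.02, -0.03 to 0.07), 255 and 268 CPM in T (0.07, -0.04 to 0.18), 221 and 237 CPM in negative B (0.10, 0.04 to 0.15) and 182 and 201 CPM in positive B barcodes (0.15, 0.02 to 0.27).

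Per barcode, the summed UMIs of the 10 genes varied widely within a class. At least 1 UMI of the set was in 99.6% of CD and 99.9% of HFD macrophage barcodes and in 97.05% to 98.7% of barcodes in the other classes. The median number of members with a UMI was 6 in CD and 7 in HFD macrophage barcodes, and 3 or 4 in the lymphocyte classes. Csf1r was found in lymphocyte barcodes too, so such shares are not read as shares of cells that express the genes. Free RNA and 2-lineage barcodes were not told apart as sources of it. Per 10000 UMIs, the median macrophage barcode held 34.4 member UMIs in CD and 30.1 in HFD, with 16.5 and 15.3 at the 10th and 61.3 and 55.8 at the 90th percentile. The medians were 16.2 and 15.3 in T, 14.2 and 13.4 in negative B and 14.3 and 11.5 in positive B barcodes. At 2000 UMIs a macrophage barcode was expected to show 3.98 of the 10 genes in CD and 3.83 in HFD, and lymphocyte barcodes 1.90 to 2.43. The 10% of barcodes with the highest sums held 17.7% to 27.2% of member UMIs over the 8 sets of class and library.

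**Figure D5:**
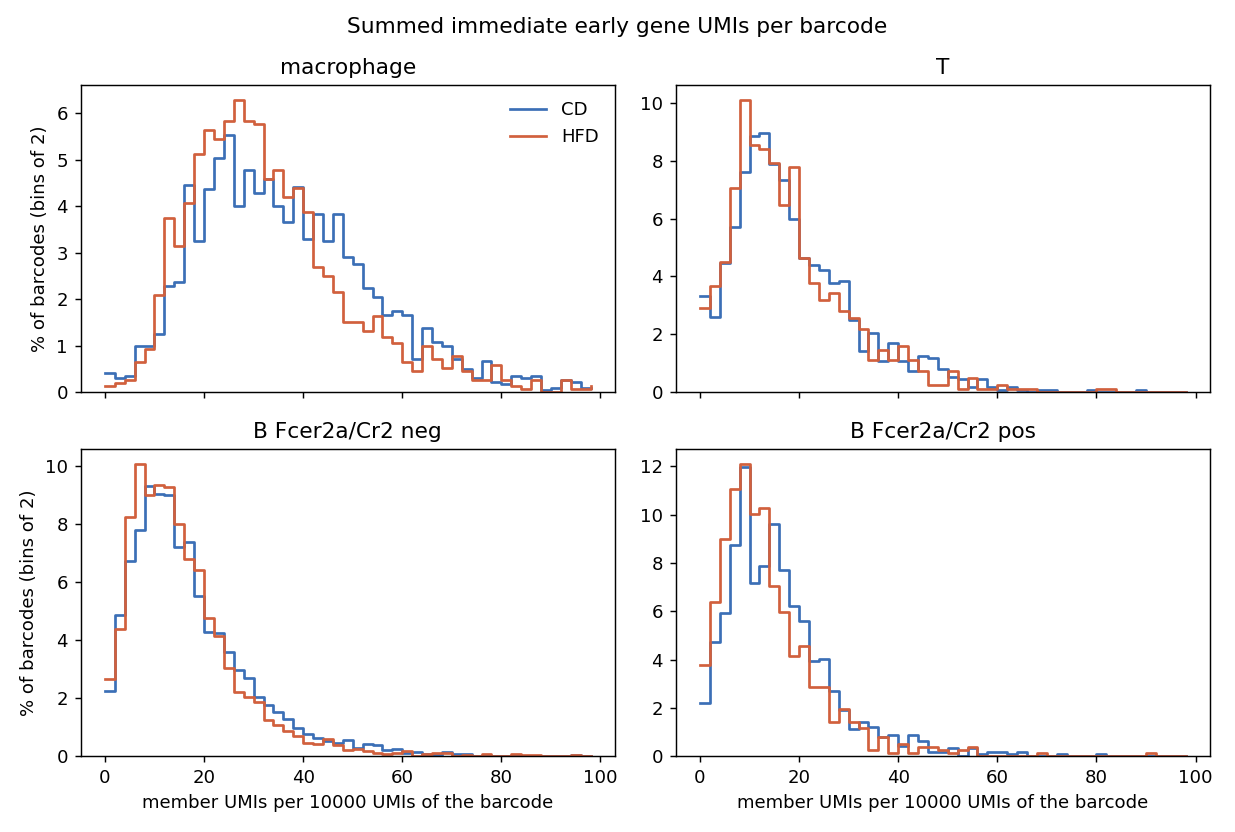
Distribution over barcodes of the summed UMIs of the 10 genes per 10000 UMIs, in bins of 2, for CD (blue) and HFD (orange), as % of barcodes of the class, with 1 panel per class. The macrophage distributions lie to the right of the others, with medians of 34.4 (CD) and 30.1 (HFD), and between 0 and 21 barcodes per set lie at 100 or more and are not drawn.

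Members varied together only weakly from barcode to barcode. Across barcodes of 1 class and library, 768 to 4884 of them, the correlation of a gene with the sum of the other 9 was between 0.04 and 0.35, on log2 values per 10000 UMIs. Barcodes of a set share a library and depth enters each value, so these are descriptions. The closest pair was Egr1 and Nr4a1, with a mean r of 0.23 over the 8 sets and a range of 0.09 to 0.48. Of 6509 genes found in at least 5% of barcodes of each set, those most like the member sum outside the list were Ecm1, Lyz2, Trf, Prg4, Cebpb, Cfp, Alox5ap, Timp2, Jund and Adgre1, with mean r of 0.19 to 0.16, and most of these are macrophage genes. Without 2-lineage barcodes the first were Jund (0.22), an AP-1 subunit, Ppp1r15a (0.16), a stress-induced regulator of translation, Klf2 (0.14), Rhob (0.14), H3f3b (0.14), Klf6 (0.13), H2-D1 (0.12) and Nfkbia (0.12), of 5879 genes. Such r values are weak and rank genes only.

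Genes around the 10 members were taken from lists, and their counts stand against all tested genes. Past 1.5-fold, 6.56% of all tested genes were lower and 3.7% higher in HFD macrophages, 7.55% and 3.79% in T, 2.98% and 2.16% in negative B, and 2.14% and 3.44% in positive B barcodes. Of 10 AP-1 partners, 6 were tested in macrophages, 7 in T, and 5 in each B class, and past 1.5-fold 0 were higher in any class. Batf3 was lower in T (21.8 and 9.79 CPM, log2 ratio -1.16) and Atf3 in positive B barcodes (12.1 and 7.17 CPM, -0.75). Batf3 in T was -1.21 (-1.89 to -0.55) without 2-lineage barcodes. Atf3 in positive B barcodes was then -0.65 (-1.37 to 0.04), with both levels below 10 CPM, so it was no longer among the tested genes. Jund had 583 and 455 CPM in macrophages, -0.36, and -0.07 without 2-lineage barcodes. In T barcodes 1 partner, Mafk, was higher only when those barcodes were left out. Among 20 other immediate early regulators, 1 of 14 tested was lower and 2 higher in macrophages, 2 of 15 lower and 1 higher in T, 6 of 15 lower and 0 higher in negative B, and 3 of 15 lower and 3 higher in positive B barcodes. The macrophage count toward CD and both T counts are near the shares of all genes. Without 2-lineage barcodes 0 of 13 were lower and 2 higher in macrophages (4.26% and 3.77% of all genes). In T 2 of 15 were lower, Gadd45b and Cd69, and 2 higher, Klf10 and Rhob (6.71% and 4.15%). In negative B barcodes 4 of 13 were lower, Klf6, Myc, Gadd45b and Cd69, and 1 higher, Klf10 (1.94% and 2.68%). In positive B barcodes 4 of 13 were lower, Klf4, Klf6, Myc and Cd69, and 2 higher, Klf10 and Srf (1.8% and 3.69%). Those higher in macrophages were Klf4, a transcription factor (52.4 and 110 CPM, 1.07), and Myc, a growth regulator (56.9 and 92.3 CPM, 0.70). In T Myc was also higher (0.60, and 0.55 without 2-lineage barcodes, short of 1.5-fold), and in negative and positive B barcodes it was lower (-0.81 and -0.80).

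Cd69, an early activation marker that retains lymphocytes in tissue, was lower in HFD in all 4 classes. In macrophages it had 22.5 and 2.52 CPM (-3.16), from 337 and 53 UMIs. Without 2-lineage barcodes it had 5.78 and 0.852 CPM there (-2.76), from 61 and 16 UMIs, while the B marker sum of that class went from 1269 and 326 CPM to 297 and 151 CPM. T barcodes had 122 and 52.1 CPM (-1.22), negative B barcodes 109 and 35.1 CPM (-1.64) and positive B barcodes 228 and 83.5 CPM (-1.45). Without 2-lineage barcodes these ratios were -1.19, -1.64 and -1.42. The Fos ratios beside them were -0.47, -0.49 and -1.21, and -0.18, -0.47 and -1.26 without those barcodes. Klf6, a zinc-finger factor, had 255 and 150 CPM in positive B barcodes (-0.77). In negative B barcodes Ier3, an apoptosis regulator, had 21.1 and 8.995 CPM (-1.23), but was -0.30 (-0.87 to 0.24) without 2-lineage barcodes.

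Of 18 feedback genes beside Dusp1 and Zfp36, 2 of 11 tested were lower in macrophages past 1.5-fold, Socs3, an inhibitor of cytokine receptors (99.4 and 45.2 CPM, -1.14), and Zfp36l2, a relative of Zfp36 (261 and 155 CPM, -0.76). None was higher in that class, 0 of 11. Of all genes 6.56% were lower and 3.7% higher there. In T 1 of 14 was higher, Dusp2 (49.4 and 76.9 CPM, 0.64), and 0 were lower (3.79% and 7.55% of all genes). In negative B barcodes 1 of 13 was higher, Dusp5 (6.34 and 10.1 CPM, 0.67), near the 10 CPM minimum, and 0 were lower (2.16% and 2.98%). In positive B barcodes 1 of 12 was lower, Socs1 (16.8 and 10.97 CPM, -0.61), and 0 were higher (2.14% and 3.44%). A count of 1 in so short a list is not read as a result about the list. Without 2-lineage barcodes Socs3 and Zfp36l2 were again the 2 of 11 lower in macrophages (4.26% of all genes). Dusp2 in T was then 0.33, while Nfkbiz was the 1 of 13 higher there (4.15%). In either B class 0 of 12 passed (1.94% lower and 2.68% higher in negative B, 1.8% and 3.69% in positive B). Of 19 upstream kinases and factors, 16 were tested in macrophages and 17 in each other class, and 0 passed 1.5-fold in either direction in any class. Their median log2 ratios were -0.06, 0.07, 0.13 and 0.16 in macrophages, T, negative B and positive B barcodes.

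Some heat shock genes, which encode chaperones induced by protein stress, were lower in HFD. Past 1.5-fold, 3 of 12 tested were lower in macrophages (6.56% of all genes), 1 of 9 in T (7.55%), 3 of 9 in negative B (2.98%) and 4 of 8 in positive B barcodes (2.14%), and 0 were higher. The T count is near the share of all genes. By interval, 9 of 12 lay below 0 in macrophages (30.6% of all genes) and 2 above (24.4%). Below 0 lay 7 of 9 in T (17.8%), 9 of 9 in negative B (25.5%) and 8 of 8 in positive B barcodes (8.71%). In these classes 0 lay above, where 12.8%, 21.2% and 15.7% of all genes did. The count above 0 in macrophages is near the share of all genes. Without 2-lineage barcodes 4 of 12 were lower past 1.5-fold in macrophages (4.26% of all genes), 2 of 9 in T (6.71%), 4 of 8 in negative B (1.94%) and 4 of 8 in positive B barcodes (1.8%). Their medians were -0.47, -0.16, -0.57 and -0.53, and -0.49, -0.16, -0.58 and -0.52 without those barcodes. Dnajb1, a co-chaperone, was lower in every class, with -0.86 in macrophages, -0.83 in T, -0.86 in negative B and -0.73 in positive B barcodes. The part of the heat shock difference in that of the 10 genes was not tested.

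Within the T class, the members were followed in barcodes with Cd4 and no Cd8 UMI, 229 in CD and 190 in HFD, and the reverse, 234 and 260. The summed log2 ratio was 0.07 (-0.01 to 0.15) in the Cd4 and 0.00 (-0.09 to 0.08) in the Cd8 barcodes, against -0.10 in the whole class. Junb was 482 and 596 CPM in Cd8 barcodes (0.31, 0.16 to 0.45) and 727 and 758 CPM in Cd4 ones (0.06, -0.07 to 0.19). Zfp36 went in opposite directions, 291 and 358 CPM in Cd4 (0.30, 0.10 to 0.50) and 272 and 214 CPM in Cd8 barcodes (-0.35, -0.56 to -0.13). These HFD levels rest on 437 and 375 UMIs, and a single HFD barcode of the T class held 77 Zfp36 UMIs. The highest count in an HFD macrophage barcode was also 77, and whether this was the same barcode was not tested. Whether the T barcode lay in the Cd4 set, and how far the Cd4 direction of Zfp36 rests on it, was not tested. The Cd4 and Cd8 values were not recomputed without mixed barcodes. Fos was -0.37 (-0.66 to -0.09) in Cd4 and -0.12 (-0.43 to 0.19) in Cd8 barcodes. Ier2 was 0.37 (0.14 to 0.60) and -0.13 (-0.35 to 0.09).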

How the data were processed

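Expression and receptor files were used. The expression matrices hold UMI counts per gene and barcode, deposited by the authors without normalization, and per the file headers written by Cell Ranger 8.0.1, while per the submitters' processing notes the tools were Seurat 4.3.0 and Cell Ranger 6.0.1 on build mm39. The receptor tables served only to mark barcodes with a contig (7120 CD and 3695 HFD barcodes of the matrices). Settings of cell calling are not given in the sources used here. UMIs were summed per class and library and given as CPM, with exact Poisson intervals, Clopper-Pearson intervals for shares, and the exact conditional interval for log2 ratios, with a delta-method interval for their differences between classes, all at 95%, from Python 3.11.15 with scipy 1.17.1. The ratio code was tested on simulated data. The 99 CD and 49 HFD barcodes that pass both the macrophage and the T limits count in both classes. No doublet caller was run, and barcodes that pass another class's limit (for B, 3 or more UMIs over a set of B-lineage markers that is not listed here) were left out as an alternative.

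The members and lists were chosen with earlier results of these data known. Named genes are the 10 members, up to 4 genes per list and class with the largest absolute ratio, of which not all are printed, and the 10 genes most like the member sum. Alternatives were the barcode filter, class limits, totals, centring, weighting, depth window, the highest 1% of barcodes and, added after the data were seen, 2-lineage exclusion with the depth window, shared barcode sequences, bands of depth, and 2-lineage exclusion for the similarity ranking, the order of and differences between classes, and list genes. Upstream windows come from RefSeq on GRCm38.p6, which is not the build of the files.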

Additional observations from a re-analysis of the deposited data

Results flagged for a closer look

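Junb and Btg2 had ratios of opposite sign in different classes, with intervals that did not reach 0 on either side. Junb was 0.0748 in T, against -0.15 in macrophages, -0.06 in negative B and -0.12 in positive B barcodes. Its sign in T and in negative B barcodes turned without 2-lineage barcodes, to -0.04 and 0.01. Btg2 was 0.19 in negative B barcodes, against -0.15 in macrophages and -0.16 in T, and 0.23, -0.21 and -0.15 without 2-lineage barcodes. The interval in T then spanned 0 (-0.35 to 0.05). With 1 library per diet these differences between classes were not tested beyond counting error.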

How the results depend on the processing

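Of 40 gene-by-class ratios, 31 kept their sign under all 11 alternatives (9 planned and 2 added), and 9 had the other sign under at least 1. Of 440 alternative values 21 had the other sign, 6 of them where the reported interval lay off 0, and apart from these 6 there were 57 values outside the reported interval. The summed macrophage ratio (-0.13) was -0.20 without 2-lineage barcodes, -0.0938 centred on all genes, -0.17 with equal weight per barcode, -0.19 at 3000 to 10000 UMIs and -0.21 with both limits. In T (-0.10) it was -0.15 at 3000 to 10000 UMIs. In negative B barcodes (-0.13) it was -0.16 with 800 genes and 5% mitochondrial UMIs, -0.0541 without 2-lineage barcodes, -0.10 at 3000 to 10000 UMIs and, reversed, 0.0026 with both limits. In positive B barcodes (-0.25) it was -0.30 with the reduced total, -0.30 centred and -0.31 at 3000 to 10000 UMIs. The 6 were Junb in T (-0.0369 without 2-lineage barcodes, -0.0564 with both limits) and in negative B barcodes (0.0077 and 0.104 likewise, and 0.0215 at 3000 to 10000 UMIs), and Fosb in positive B barcodes (0.0372 under stricter classes). The other 15 belong to ratios whose reported interval spans 0: Fosb (up to 0.12) and Ier2 (down to -0.04) in macrophages, Fosb (up to 0.0998) and Nr4a1 (-0.23 at 3000 to 10000 UMIs) in T, and Egr1 (up to 0.45, without the highest 1% of barcodes) and Nr4a1 (down to -0.21, with equal weight per barcode) in positive B barcodes. Where leaving out 2-lineage barcodes moved a value, fewer barcodes and less RNA of other lineages went with it, and other causes were not tested. No paired analysis was possible because each diet has 1 library and no replicate number. Members near 10 CPM are limited by counts, as the wide Fosb intervals show.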

Other observations

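Barcodes outside the 4 classes showed the members too. Those without a contig that passed neither the macrophage nor the T limit numbered 2696 in CD and 710 in HFD and had summed levels of 2049 and 2175 CPM, above those of the T and B classes in both libraries. In them Nr4a1 had 26.3 CPM in CD and 60.8 CPM in HFD, Egr1 46.6 and 64.3 CPM, and Fos 297 and 220 CPM. B barcodes with exactly 1 UMI over Fcer2a and Cr2, 1085 in CD and 500 in HFD, had 1759 and 1556 CPM, close to the negative B class. Barcodes that passed the macrophage and the T limit together, 99 and 49, had 2729 and 2788 CPM, between those of the macrophage and T classes.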
